A study of Mus musculus with 48 samples.

Results

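The S100 calcium binding family was followed in mouse kidneys through 8 of its genes: S100a1, S100a4, S100a6, S100a8, S100a9, S100a10, S100a11 and S100a13. Each gene was read from the probe set that names it alone and has the highest mean over the 48 arrays. Of the 8 genes, 7 could be read in this way and passed the filter on low values, among 13174 genes tested. S100a11 lies on a probe set that carries more than 1 gene symbol, so it has no value here. The mice were FVB, a strain given as predisposed to kidney lesions, or C57BL/6 (written B6), given as not predisposed. At 9 weeks of age they had either subtotal nephrectomy (Nx), which removes most of the kidney mass, or a sham operation (sham). Whole kidneys were taken 2, 28 or 53 days later, and total RNA of each mouse was hybridised to 1 Affymetrix array. This makes 12 groups of 4 mice: FVB Nx, FVB sham, B6 Nx and B6 sham at each of day 2, day 28 and day 53, with no engineered allele or drug named for any group.

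S100 proteins are small proteins of the EF-hand class that work mostly as dimers. Binding of calcium opens a hydrophobic face with which they hold target proteins, and some members are also released from cells and act on receptors such as RAGE and TLR4. S100a8 and S100a9 encode the subunits of calprotectin, which is abundant in neutrophils and monocytes and is released where tissue is inflamed. S100a4 encodes a partner of non-muscle myosin found in fibroblasts and macrophages, S100a6 encodes calcyclin, and S100a10 encodes p11, which does not respond to calcium and binds annexin A2 at the membrane. S100a13 takes part in the release of FGF1, and S100a1 is best known as a regulator of calcium handling in muscle.

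All 8 genes lie on chromosome 3, and the RefSeq promoter table (build GRCm38.p6) holds a window from 250 bases before to 50 bases after the start for 7 of them, S100a10 being the other. The windows of 4 genes are printed because these genes changed most in Nx kidneys and come as 2 neighbouring pairs with different courses over the 3 days. Capitals mark matches to the TATA box letters TATAAA on the printed strand and to the C/EBP letters TTGCNNAA on either strand. The windows are S100a8 at chr3:90668821-90669120 on the plus strand, S100a9 at chr3:90695672-90695971 on the minus strand, S100a4 at chr3:90603520-90603819 on the plus strand and S100a6 at chr3:90612644-90612943 on the plus strand, each written 5′ to 3′.
S100a8: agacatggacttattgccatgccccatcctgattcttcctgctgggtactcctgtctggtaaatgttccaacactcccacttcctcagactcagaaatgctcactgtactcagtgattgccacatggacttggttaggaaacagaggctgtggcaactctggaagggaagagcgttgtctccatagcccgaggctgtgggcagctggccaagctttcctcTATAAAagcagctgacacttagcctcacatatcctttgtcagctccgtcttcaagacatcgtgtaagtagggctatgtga
S100a9: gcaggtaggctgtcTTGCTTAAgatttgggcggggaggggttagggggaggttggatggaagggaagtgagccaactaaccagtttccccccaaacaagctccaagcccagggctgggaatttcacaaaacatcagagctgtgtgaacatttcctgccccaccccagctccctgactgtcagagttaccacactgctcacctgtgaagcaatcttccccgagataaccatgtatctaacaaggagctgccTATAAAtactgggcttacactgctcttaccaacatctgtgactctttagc
S100a4: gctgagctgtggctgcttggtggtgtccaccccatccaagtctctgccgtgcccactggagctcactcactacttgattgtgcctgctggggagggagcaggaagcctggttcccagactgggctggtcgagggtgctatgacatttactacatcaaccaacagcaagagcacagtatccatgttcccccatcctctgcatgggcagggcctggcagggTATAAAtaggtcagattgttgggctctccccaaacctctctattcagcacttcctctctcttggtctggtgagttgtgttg
S100a6: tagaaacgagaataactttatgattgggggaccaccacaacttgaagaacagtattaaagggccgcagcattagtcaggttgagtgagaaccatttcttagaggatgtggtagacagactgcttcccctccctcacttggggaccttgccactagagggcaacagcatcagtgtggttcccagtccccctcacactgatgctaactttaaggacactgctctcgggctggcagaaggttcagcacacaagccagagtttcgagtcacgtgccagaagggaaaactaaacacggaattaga
Counted from the annotated start as base 0, TATAAA begins at -30 in S100a8, at -31 in S100a4 and at 0, the start itself, in S100a9. A C/EBP match, TTGCTTAA, begins at -236 in S100a9. The S100a6 window holds no match to any of the 5 sets of letters searched. TATAAA occurs on the printed strand of 8.32% of 32851 promoter windows of the same length, and TTGCNNAA occurs on either strand of 10.8%. Searched on both strands as well were AP-1 (TGANTCA, in 7.81% of windows), the NF-kB motif (given by name alone, 1.2%) and STAT (TTCCNGGAA, 1.15%), and the printed windows hold none of these. The starts of S100a1 and S100a13 lie 105 bases apart on opposite strands, so their windows share 204 bases.

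The deposited values run from 2.20 to 16.18 on the log2 scale, and 32.1% of them lie at that lowest value. Markers of the labelled tissue were present on every array: the mean of 7 kidney epithelium markers, among them Umod, Lrp2 and Slc34a1, lay between 10.49 and 11.72 in Nx groups, against 11.75 to 12.08 in sham groups. Transcripts of other tissues were measured as well. The mean of 10 pancreas markers exceeded 5 on 16 of 24 Nx arrays and on 3 of 24 sham arrays, and 5 of 7 skeletal muscle markers were higher in FVB Nx than in FVB sham kidneys at day 53. The 3 white fat markers tested were all higher in B6 Nx kidneys at days 28 and 53, and 1 of them in FVB Nx kidneys at day 53. Their mean lay between 8.68 and 11.14 in B6 Nx kidneys, against 6.47 to 8.38 in B6 sham kidneys, at day 28, and between 9.74 and 11.55, against 6.33 to 6.83, at day 53. Their part in the B6 differences of those days was not tested. At day 2 sham kidneys held other tissue as well. The 3 brown fat markers averaged 7.63 in FVB sham and 4.61 in FVB Nx kidneys, and 7.52 and 3.25 in B6 sham and Nx kidneys. White fat markers averaged 10.06 in B6 sham and 8.78 in B6 Nx kidneys of day 2, and 9.40 and 9.99 in FVB sham and Nx kidneys. The part of fat in the day 2 differences was not tested. Leaving out the arrays with pancreas RNA leaves 1 Nx array a group at days 2 and 28, which the fit takes to vary like the other groups. With each array shifted to a common median, the share of higher genes among all calls moved by over 10 points, to 26.5% in FVB mice at day 2 (45.3% as deposited), 33.8% at day 28 (45.5%) and 29.6% at day 53 (48.2%). In B6 mice it moved to 28.5% (45.2%), 34.2% (51.9%) and 41.7% (54.6%). That shift moved the median difference of all genes to -0.21 and -0.17 in FVB mice at days 2 and 53 and to -0.15 in B6 mice at day 2, and under it no called S100 difference turned its direction. All values below are log2 values or log2 differences unless a fold is named, and a fold is 2 to the power of the difference. Each kidney is a mixture of cells, so more cells of a type and more RNA per cell cannot be told apart.

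Most of the 7 S100 genes were higher after Nx, most widely at day 2 in both strains and at day 53 in FVB mice. At day 2, 5 of the 7 genes were higher and 1 was lower in FVB Nx than in FVB sham kidneys, where 24.8% of all genes tested were called higher and 30% lower. B6 Nx kidneys at day 2 had 5 genes higher and none lower, against 20.2% and 24.4% of all genes. Fewer genes passed at day 28: 2 genes were higher in FVB Nx kidneys (7.35% of all genes higher, 8.81% lower) and 3 in B6 Nx kidneys (9.85% higher, 9.14% lower). At day 53, 6 genes were higher in FVB Nx kidneys (25.9% of all genes higher, 27.8% lower) and 3 in B6 Nx kidneys (8.03% higher, 6.68% lower). None of these 7 genes was called lower at day 28 or 53 by the probe set used.

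The median log2 difference of the 7 genes was 2.36 at day 2, 0.87 at day 28 and 2.87 at day 53 in FVB mice, beside medians over all genes of -0.03, -0.02 and -0.01. In B6 mice it was 1.74, 0.16 and 0.53, beside -0.02, -0.02 and -0.01. These 7 genes were chosen with earlier results of the data known. The other 4 S100 genes tested, described further below, are not in these medians, which therefore do not stand for the whole family. All 4 Nx values exceeded all 4 sham values for 5, 3 and 4 of the 7 genes in FVB mice and for 5, 3 and 4 in B6 mice at days 2, 28 and 53. Among all genes tested the share with Nx values wholly above sham values was 20.2%, 9.2% and 22.2% in FVB mice and 18.2%, 9.86% and 11.3% in B6 mice.

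**Figure D1:**
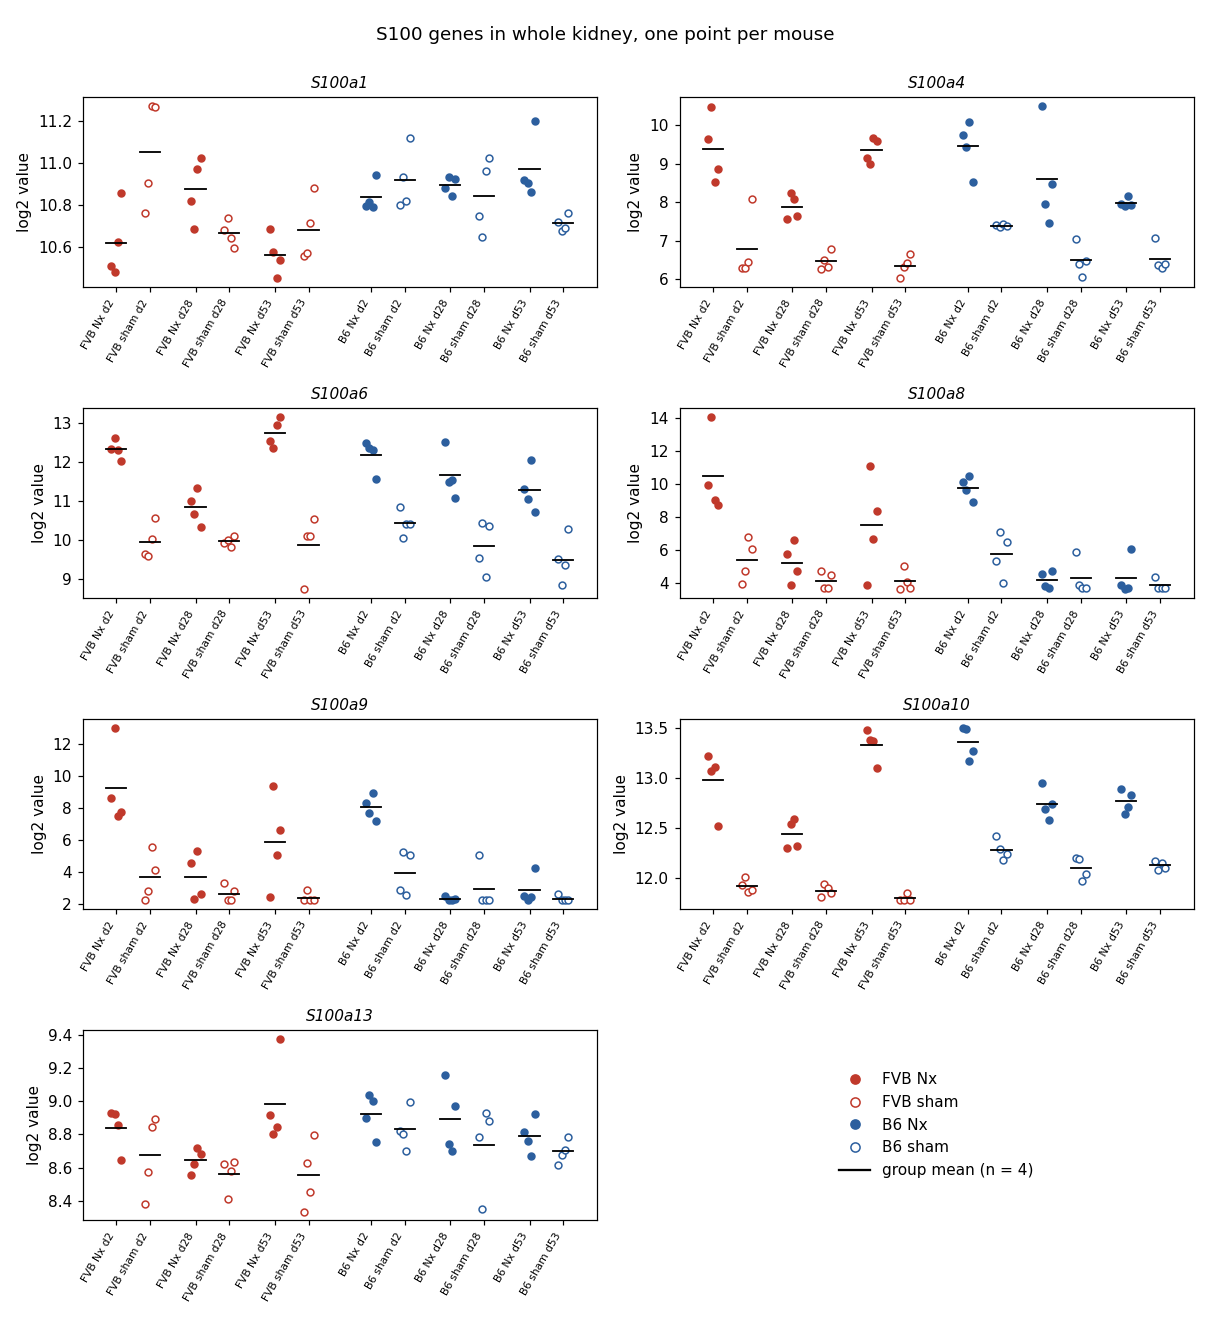
Log2 value (y axis) of the 7 S100 genes on each array, by strain, surgery and day (x axis); filled points are Nx mice, open points sham mice, red FVB and blue B6, and bars are means of 4 mice. S100a10 shows Nx points wholly above sham points in all 6 comparisons, while S100a8 and S100a9 in FVB Nx mice at day 53 spread from sham-like levels to 11.11 and 9.34.

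**Figure D2:**
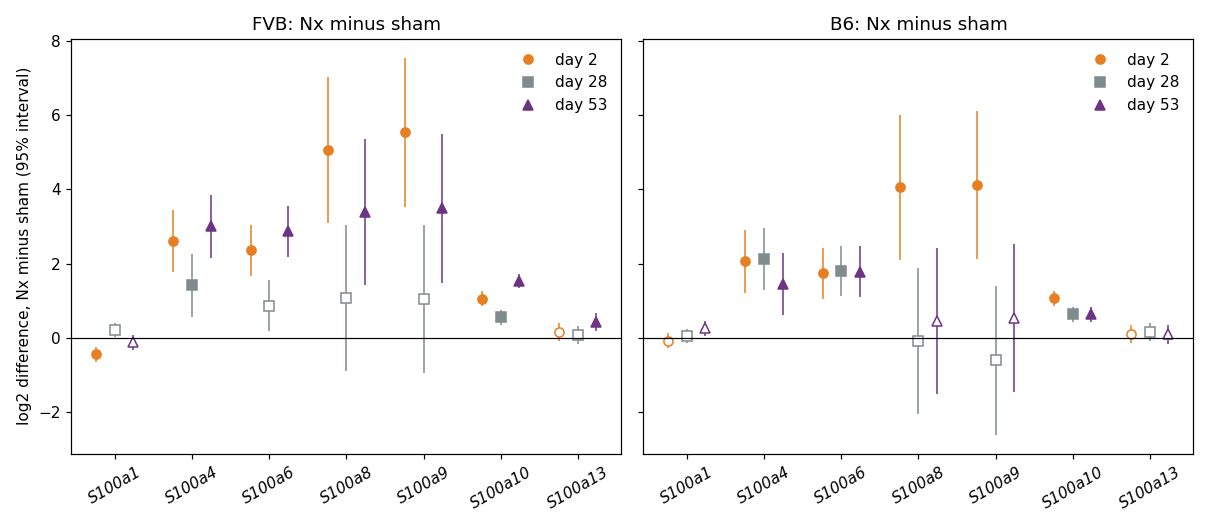
Log2 difference of Nx minus sham (y axis) with its 95% interval for each S100 gene (x axis) in FVB (left) and B6 (right), with n = 4 mice a group; circles are day 2, squares day 28 and triangles day 53, and filled symbols passed the threshold. S100a8 and S100a9 have the widest intervals and S100a10 among the narrowest.

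Calprotectin genes changed most at day 2. S100a8 read 9.96, 14.06, 9.03 and 8.75 in FVB Nx kidneys, against 3.96, 4.74, 6.79 and 6.09 in FVB sham kidneys. In B6 mice of the same day it read 9.64, 10.50, 8.89 and 10.10 in B6 Nx kidneys, against 5.36, 7.08, 4.02 and 6.47 in B6 sham kidneys. Every Nx kidney lay above every sham kidney in both strains, and FVB Nx mouse 2 stood far above the other FVB Nx mice. The difference was 5.05 (SE 0.97, adjusted p = 2.78e-05, 33.2-fold) in FVB mice and 4.05 (SE 0.97, adjusted p = 0.000738, 16.5-fold) in B6 mice. Without FVB Nx mouse 2 the FVB difference was 14.4-fold (adjusted p = 0.000645).

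S100a9, the other calprotectin subunit, followed the same course at day 2. Its values were 8.62, 13.01, 7.48 and 7.75 in FVB Nx kidneys, against 2.23, 2.78, 5.56 and 4.14 in FVB sham kidneys. The B6 mice gave 7.67, 8.92, 7.18 and 8.32 in B6 Nx kidneys, against 2.82, 5.22, 2.55 and 5.03 in B6 sham kidneys. Again no sham kidney reached the lowest Nx kidney, and mouse 2 was the highest of the FVB Nx group. S100a9 differed by 5.54 (SE 0.99, adjusted p = 9.15e-06, 46.5-fold) in FVB mice, and by 4.12 (SE 0.99, adjusted p = 0.000762, 17.3-fold) in B6 mice. The FVB fold was 19.4 without Nx mouse 2 (adjusted p = 0.000211) and 71.8 without sham mouse 4 (adjusted p = 5.28e-06), the highest FVB sham value of that day. It was 30.7 without the arrays with pancreas RNA, a value that rests on 1 FVB Nx mouse.

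At day 28 neither gene passed the test in either strain. S100a8 read 5.74, 3.87, 6.59 and 4.72 in FVB Nx kidneys, against 4.76, 3.68, 3.68 and 4.49 in FVB sham kidneys. The B6 values were 4.57, 3.83, 3.69 and 4.72 in B6 Nx kidneys, against 5.86, 3.91, 3.69 and 3.69 in B6 sham kidneys. The groups overlapped in both strains. For S100a8 the day 28 difference was 1.08 (SE 0.97, adjusted p = 0.524) in FVB mice and -0.09 (SE 0.97, adjusted p = 0.993) in B6 mice, and for S100a9 it was 1.05 (SE 0.99, adjusted p = 0.552) and -0.60 (SE 0.99, adjusted p = 0.76). S100a9 ranged from 2.29 to 5.27 in FVB Nx and from 2.21 to 3.27 in FVB sham kidneys, and from 2.21 to 2.51 in B6 Nx and from 2.21 to 5.02 in B6 sham kidneys.

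By day 53 both genes were higher in FVB Nx than in FVB sham kidneys, with a wide spread between Nx mice. S100a8 read 11.11, 6.66, 8.37 and 3.87 in FVB Nx kidneys, against 3.67, 5.06, 4.08 and 3.69 in FVB sham kidneys. S100a9 read 9.34, 5.06, 6.63 and 2.40 in FVB Nx kidneys, against 2.21, 2.83, 2.23 and 2.20 in FVB sham kidneys. For both genes Nx mice 4, 7 and 8 lay above every sham mouse, and Nx mouse 10 lay among them. The difference was 3.38 (SE 0.97, adjusted p = 0.00322, 10.4-fold) for S100a8 and 3.49 (SE 0.99, adjusted p = 0.00285, 11.2-fold) for S100a9. It was 24.1-fold and 25.0-fold without Nx mouse 10 (adjusted p = 6.16e-05 and 9.05e-05), and 4.51-fold and 5.03-fold without Nx mouse 4 (adjusted p = 0.0488 and 0.0413). Fitted on the FVB day 53 arrays alone, the calls were lost (adjusted p = 0.0897 for S100a8 and 0.067 for S100a9). In B6 mice at day 53, S100a8 read 3.92, 3.62, 3.68 and 6.06 in B6 Nx kidneys, against 4.39, 3.69, 3.69 and 3.68 in B6 sham kidneys. Those groups overlapped, and neither gene passed: 0.46 (SE 0.97, adjusted p = 0.863) for S100a8 and 0.53 (SE 0.99, adjusted p = 0.831) for S100a9.

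The low end of both genes sets how far these folds can be read. For S100a8, 9 sham and 3 Nx arrays lay within 0.1 of its lowest value, 3.62. For S100a9, 12 sham and 4 Nx arrays lay within 0.1 of 2.20, which is the lowest value of the whole table, so its true sham level may lie lower than the value given. S100a9 passed the filter value of 2.28 on 33 of 48 arrays, the other 6 genes on all 48.

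Markers of neutrophils, which carry calprotectin, moved with these genes at day 2. Of 12 neutrophil markers 4 were tested, and all 4 were higher in FVB Nx kidneys (median difference 1.51), 2 of them also in B6 Nx kidneys. Among all genes, 24.8% and 20.2% were called higher there. Csf3r and Mmp8 lay at or under the filter value on all 4 arrays of every sham group. Since the filter asks for 4 arrays over its value, Nx arrays alone brought these genes into the test. The count of 4 of 4 was thus partly fixed by the filter. The collagenase gene Mmp9 differed by 3.48 (adjusted p = 6.45e-10) in FVB and by 3.85 (adjusted p = 1.81e-10) in B6 mice, and Csf3r, the receptor for granulocyte colony stimulating factor, by 0.52 (adjusted p = 5.98e-05) and 0.36 (adjusted p = 0.00504). The granule genes Ltf (1.74, adjusted p = 0.0242) and Mmp8 (1.27, adjusted p = 0.0061) passed in FVB mice at day 2 only among the 6 comparisons. Single arrays weigh on both: Ltf averaged 3.97 over the 4 Nx arrays and 2.32 without its highest (8.90), against 2.23 in sham kidneys. Mmp8 averaged 3.47 and, without its highest (6.03), 2.62, against 2.20 in sham kidneys. Mpo, Elane, Camp, Ngp, Cxcr2 and Fcnb stayed under the filter, and Ly6g and Retnlg have no probe set of their own. The mean over the 4 markers was 6.98 in FVB Nx mouse 2, the mouse highest for S100a8 and S100a9, and 3.79 to 4.42 in the other FVB Nx mice of day 2.

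At day 53 none of the 4 neutrophil markers passed in FVB mice, while S100a8 and S100a9 did. Their mean was 3.75 in Nx mouse 4, the highest of its group for both calprotectin genes, and 2.96 to 3.10 in the other Nx mice, against 2.92 to 2.99 in FVB sham mice. Ltf and Mmp8 were above the filter value on 1 of the 4 Nx arrays each. Monocyte and macrophage markers were higher at day 53 for 11 of 11 genes in FVB mice and 9 of 11 in B6 mice. Among all genes, 25.9% and 8.03% were called higher there. Within groups, S100a8 had r = 0.369 and rho = 0.420 with the macrophage mean (adjusted p = 0.0176 and 0.0214), and S100a9 had r = 0.347 and rho = 0.381 (adjusted p = 0.026 and 0.0412), by the permutation test described with the other relations. How much of the calprotectin level these cells carry was not tested. Leaving out the arrays with pancreas RNA, which removes FVB Nx mice 4 and 7, gave 3.98-fold for S100a8 (adjusted p = 0.0851) and 4.44-fold for S100a9 (adjusted p = 0.0626).

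S100a4, the myosin partner of fibroblasts and macrophages, was higher after Nx in all 6 comparisons. At day 2 it read 9.64, 10.48, 8.52 and 8.87 in FVB Nx kidneys, against 6.29, 6.29, 6.43 and 8.08 in FVB sham kidneys. At day 28 the FVB values were 7.55, 8.25, 8.07 and 7.63 in FVB Nx kidneys, against 6.27, 6.49, 6.31 and 6.78 in FVB sham kidneys. Day 53 gave 8.98, 9.67, 9.58 and 9.15 in FVB Nx kidneys, against 6.01, 6.30, 6.40 and 6.65 in FVB sham kidneys. Nx and sham mice did not overlap on any of the 3 days, although sham mouse 5 of day 2 came close to the Nx mice. The differences were 2.60 (SE 0.42, adjusted p = 1.33e-06, 6.08-fold) at day 2, 1.41 (SE 0.42, adjusted p = 0.015, 2.66-fold) at day 28 and 3.00 (SE 0.42, adjusted p = 8.38e-08, 8.02-fold) at day 53. The day 28 call was lost without Nx mouse 3 (1.29, adjusted p = 0.0534) and without the arrays with pancreas RNA (1.16, adjusted p = 0.222), which leaves 1 FVB Nx array at day 28.

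In B6 mice at day 2, S100a4 read 9.42, 10.08, 8.53 and 9.75 in B6 Nx kidneys, against 7.40, 7.34, 7.43 and 7.37 in B6 sham kidneys. Day 28 values were 10.50, 7.96, 7.46 and 8.48 in B6 Nx kidneys, against 7.04, 6.39, 6.04 and 6.46 in B6 sham kidneys. Day 53 values were 7.94, 7.90, 8.17 and 7.91 in B6 Nx kidneys, against 7.05, 6.35, 6.29 and 6.40 in B6 sham kidneys. Again no Nx mouse overlapped a sham mouse, and Nx mouse 3 of day 28 stood well above the rest of its group. S100a4 differed by 2.06 (SE 0.42, adjusted p = 8.86e-05, 4.17-fold) at day 2, 2.12 (SE 0.42, adjusted p = 0.000248, 4.34-fold) at day 28 and 1.46 (SE 0.42, adjusted p = 0.0127, 2.74-fold) at day 53. Without Nx mouse 3 the day 28 difference was 2.79-fold (adjusted p = 0.00478), and fitted on the B6 day 28 arrays alone it did not pass (adjusted p = 0.0944). Without the arrays with pancreas RNA, mouse 3 is the single B6 Nx array left at day 28, and the difference was 18.5-fold, a value that rests on that mouse. That mouse also had the highest mean of 11 macrophage markers in its group, 9.94, with 7.93 to 8.03 in the other Nx mice.

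S100a6, calcyclin, was higher after Nx at days 2 and 53 in FVB mice and on all 3 days in B6 mice. At day 2 it read 12.32, 12.61, 12.30 and 12.02 in FVB Nx kidneys, against 9.64, 9.60, 10.04 and 10.56 in FVB sham kidneys. Day 28 gave 10.99, 10.67, 11.34 and 10.33 in FVB Nx kidneys, against 9.94, 10.01, 9.81 and 10.09 in FVB sham kidneys. Day 53 gave 12.35, 12.93, 13.14 and 12.53 in FVB Nx kidneys, against 8.74, 10.10, 10.10 and 10.53 in FVB sham kidneys. The Nx values lay wholly above the sham values on each day, with the narrowest gap at day 28. The FVB differences were 2.36 (SE 0.34, adjusted p = 1.97e-07, 5.12-fold), 0.87 (SE 0.34, adjusted p = 0.0763, 1.82-fold) and 2.87 (SE 0.34, adjusted p = 2.94e-09, 7.33-fold), of which that of day 28 did not pass. It passed without Nx mouse 8 (1.03, adjusted p = 0.0477) and when only the arrays compared were fitted (adjusted p = 0.0349).

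B6 mice at day 2 had S100a6 values of 12.34, 12.29, 11.56 and 12.48 in B6 Nx kidneys, against 10.85, 10.05, 10.42 and 10.41 in B6 sham kidneys. At day 28 they had 12.50, 11.49, 11.54 and 11.08 in B6 Nx kidneys, against 9.54, 10.44, 9.06 and 10.36 in B6 sham kidneys. At day 53 they had 11.30, 11.06, 12.05 and 10.73 in B6 Nx kidneys, against 9.51, 8.84, 9.36 and 10.29 in B6 sham kidneys. No Nx mouse overlapped a sham mouse here either. The differences were 1.74 (SE 0.34, adjusted p = 5.82e-05, 3.33-fold) at day 2, 1.80 (SE 0.34, adjusted p = 0.000147, 3.48-fold) at day 28 and 1.78 (SE 0.34, adjusted p = 0.000216, 3.44-fold) at day 53, so the B6 effect stayed between 3.33-fold and 3.48-fold on the 3 days.

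S100a10, the annexin A2 partner p11, was higher after Nx in all 6 comparisons, by smaller folds but with replicates that lay close together. At day 2 it read 13.22, 13.07, 13.11 and 12.53 in FVB Nx kidneys, against 11.93, 12.01, 11.86 and 11.88 in FVB sham kidneys. Day 28 gave 12.30, 12.54, 12.59 and 12.32 in FVB Nx kidneys, against 11.81, 11.94, 11.90 and 11.86 in FVB sham kidneys. Day 53 gave 13.38, 13.36, 13.10 and 13.48 in FVB Nx kidneys, against 11.78, 11.78, 11.86 and 11.78 in FVB sham kidneys. Nx and sham mice were separate on each day. Without the arrays with pancreas RNA the day 28 call was lost (0.38, adjusted p = 0.0686). With all arrays the differences were 1.06 (SE 0.10, adjusted p = 1.47e-11, 2.08-fold), 0.56 (SE 0.10, adjusted p = 7.33e-05, 1.47-fold) and 1.53 (SE 0.10, adjusted p = 1.12e-15, 2.89-fold).

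In B6 kidneys at day 2, S100a10 read 13.49, 13.17, 13.27 and 13.50 in B6 Nx kidneys, against 12.42, 12.30, 12.19 and 12.24 in B6 sham kidneys. At day 28 it read 12.95, 12.69, 12.58 and 12.75 in B6 Nx kidneys, against 12.20, 12.20, 11.98 and 12.05 in B6 sham kidneys. At day 53 it read 12.89, 12.64, 12.71 and 12.83 in B6 Nx kidneys, against 12.17, 12.08, 12.15 and 12.11 in B6 sham kidneys. The groups were again separate. S100a10 differed by 1.07 (SE 0.10, adjusted p = 2.89e-11, 2.10-fold), 0.64 (SE 0.10, adjusted p = 9.54e-06, 1.56-fold) and 0.64 (SE 0.10, adjusted p = 1.22e-05, 1.56-fold) on the 3 days. Of the other probe sets of S100a10, 1 gave the same calls in all 6 comparisons, with differences from 0.52 to 1.63. The remaining one passed at day 2 in both strains and at day 53 in FVB mice, and gave -0.03 (adjusted p = 1) at day 28 in FVB, 0.46 (adjusted p = 0.293) at day 28 in B6 and 0.40 (adjusted p = 0.432) at day 53 in B6 mice.

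S100a13 and S100a1, whose starts lie back to back, changed little and in different comparisons. S100a13, which serves FGF1 release, passed only at day 53 in FVB mice. It read 8.80, 8.84, 9.37 and 8.92 in FVB Nx kidneys, against 8.34, 8.63, 8.46 and 8.80 in FVB sham kidneys there. All Nx values exceeded all sham values, the closest being nearly equal. The difference was 0.43 (SE 0.12, adjusted p = 0.00268, 1.35-fold), and the call was lost when only the arrays compared were fitted (adjusted p = 0.0554). In the other 5 comparisons S100a13 differed by 0.08 to 0.16.

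S100a1, the calcium handling member, was lower in FVB Nx than in FVB sham kidneys at day 2. It read 10.51, 10.48, 10.62 and 10.85 in FVB Nx kidneys, against 10.76, 10.91, 11.27 and 11.27 in FVB sham kidneys. The groups overlapped, since the highest Nx kidney passed the lowest sham kidney. The difference was -0.44 (SE 0.10, adjusted p = 0.000263). It was taken against a high sham level: the FVB sham mean was 11.05 at day 2, the highest of the 12 groups, and 10.66 and 10.68 at days 28 and 53. The FVB Nx mean of day 2 was 10.62, near those later sham means. In B6 mice at day 53 all Nx values of S100a1 lay above all sham values, without passing the test. No comparison but the first passed: S100a1 differed by 0.21 (SE 0.10, adjusted p = 0.148) at day 28 and -0.12 (SE 0.10, adjusted p = 0.324) at day 53 in FVB mice, and by -0.08 (SE 0.10, adjusted p = 0.552), 0.05 (SE 0.10, adjusted p = 0.81) and 0.26 (SE 0.10, adjusted p = 0.0702) in B6 mice. A second S100a1 probe set was lower in Nx kidneys at day 2 in FVB (-0.74, adjusted p = 6.25e-08 over 24197 probe sets), at day 53 in FVB (-0.44, adjusted p = 0.000325) and at day 2 in B6 mice (-0.32, adjusted p = 0.0104), so the 2 probe sets differ in the last 2 calls.

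The course of the Nx effect over time differed between genes. From day 2 to day 28 in FVB mice the effect fell for 4 genes and rose for 1, where 12.5% of all genes fell and 12.8% rose. The change was -3.98 (95% interval -6.75 to -1.20, adjusted p = 0.0291) for S100a8, -4.49 (95% interval -7.33 to -1.66, adjusted p = 0.0155) for S100a9, -1.49 (95% interval -2.46 to -0.52, adjusted p = 0.0195) for S100a6 and -0.50 (95% interval -0.78 to -0.22, adjusted p = 0.00715) for S100a10. S100a1 rose by 0.65 (95% interval 0.36 to 0.93, adjusted p = 0.000643), and S100a4 did not pass with -1.19 (95% interval -2.38 to -0.00, adjusted p = 0.137). The S100a1 mean went from 10.62 to 10.88 in FVB Nx and from 11.05 to 10.66 in FVB sham kidneys, so both groups moved. Without FVB Nx mouse 2 of day 2 the S100a8 and S100a9 changes were -2.77 (adjusted p = 0.121) and -3.23 (adjusted p = 0.0695). The S100a8 call was lost for 6 of 16 single arrays left out (adjusted p up to 0.121), the S100a6 call for 1 (adjusted p = 0.0519) and the S100a9 call for 1. Without the arrays with pancreas RNA 4 of the 5 calls were lost: -2.49 (adjusted p = 0.415) for S100a8, -2.63 (adjusted p = 0.381) for S100a9, -1.29 (adjusted p = 0.404) for S100a6 and 0.67 (adjusted p = 0.0798) for S100a1. Fitted on the arrays compared alone, S100a8 (adjusted p = 0.0629) and S100a9 (adjusted p = 0.0544) also missed the threshold. S100a4 passed without FVB sham mouse 5 of day 2 (-1.63, adjusted p = 0.0314).

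From day 28 to day 53 the FVB effect rose for 3 genes and fell for none, beside 13.7% and 12.6% of all genes. It rose by 2.01 (95% interval 1.03 to 2.98, adjusted p = 0.00162) for S100a6, by 0.97 (95% interval 0.69 to 1.25, adjusted p = 2.04e-06) for S100a10 and by 1.59 (95% interval 0.40 to 2.78, adjusted p = 0.0407) for S100a4. The S100a4 call was lost for 9 of 16 single arrays left out (adjusted p 0.0543 to 0.0774), and the S100a6 call was lost without the arrays with pancreas RNA (1.90, adjusted p = 0.111). S100a8 and S100a9 gave 2.30 (95% interval -0.48 to 5.08, adjusted p = 0.231) and 2.45 (95% interval -0.39 to 5.28, adjusted p = 0.208). Without FVB Nx mouse 10 of day 53 they passed, with 3.51 (adjusted p = 0.0347) and 3.60 (adjusted p = 0.0375), and without the arrays with pancreas RNA they were -0.07 and -0.16. S100a1 did not pass in the main fit (-0.33, adjusted p = 0.0767) and passed without FVB Nx mouse 3 of day 28 (-0.39, adjusted p = 0.0386). It also passed with the median shift (-0.44, adjusted p = 0.0221), the mean of probe sets (-0.43, adjusted p = 0.0132) and array weights (-0.34, adjusted p = 0.0496). The day 28 arrays enter both steps, so the falls and rises share mice.

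In B6 mice the effect fell from day 2 to day 28 for S100a9, with -4.72 (95% interval -7.55 to -1.89, adjusted p = 0.0264), and for S100a10, with -0.43 (95% interval -0.72 to -0.15, adjusted p = 0.0428), where 4.02% of all genes fell and 4.84% rose. S100a8 just missed the threshold with -4.14 (95% interval -6.91 to -1.36, adjusted p = 0.0508). Leaving out single arrays lost the S100a9 call for 5 of 16 arrays and the S100a10 call for 10 of 16 (adjusted p up to 0.0796 and 0.111). Without B6 sham mouse 1 of day 28 the S100a9 change was -4.02 (adjusted p = 0.0796). Both calls were lost without the arrays with pancreas RNA, with -3.47 (adjusted p = 0.281) for S100a9 and -0.32 (adjusted p = 0.24) for S100a10. S100a8 passed without B6 Nx mouse 9 of day 2 (adjusted p = 0.038), B6 Nx mouse 3 of day 28 (adjusted p = 0.0455) or B6 sham mouse 2 of day 2 (adjusted p = 0.041). S100a4 and S100a6 gave 0.06 (95% interval -1.13 to 1.24, adjusted p = 0.99) and 0.06 (95% interval -0.91 to 1.03, adjusted p = 0.98). From day 28 to day 53 no S100 gene passed in limma and none of the 13174 genes did, a share of 0%. At an unadjusted p under 0.05, no S100 gene and 405 of all genes passed there, and quantile normalisation and the median shift also called 0.

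The strain difference of the Nx effect, FVB minus B6, was tested on each day, and these contrasts use the same arrays as the comparisons above. None of the 7 S100 genes passed at day 2, where 4.41% of all genes did, or at day 28, where 0.129% did. At an unadjusted p under 0.05, 1 gene passed at day 2 and 0 at day 28. The day 2 values were 1.01 (95% interval -1.77 to 3.78, adjusted p = 0.757) for S100a8 and -0.01 (95% interval -0.29 to 0.27, adjusted p = 0.983) for S100a10. S100a1 passed at day 2 without FVB Nx mouse 5 (-0.43, adjusted p = 0.0492). At day 28, S100a6 had -0.93 (95% interval -1.90 to 0.04, adjusted p = 1).

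At day 53 the effect was greater in FVB than in B6 mice for 2 of the 7 genes and lower for 1, beside 14.2% and 14.9% of all genes. S100a10 differed by 0.89 (95% interval 0.61 to 1.17, adjusted p = 6.54e-06), S100a4 by 1.55 (95% interval 0.36 to 2.74, adjusted p = 0.043) and S100a1 by -0.38 (95% interval -0.66 to -0.10, adjusted p = 0.0365). The S100a10 call held whichever of the 16 arrays was left out. The S100a4 call was lost for 10 of 16 (adjusted p 0.0517 to 0.0954) and the S100a1 call for 8 of 16 (adjusted p 0.0509 to 0.107). For S100a4 these were FVB Nx mice 7 and 8, FVB sham mice 1, 3 and 5, B6 Nx mice 1, 2 and 7, and B6 sham mice 1 and 6. For S100a1 they were FVB Nx mice 7 and 8, FVB sham mice 5 and 6, B6 Nx mouse 7, and B6 sham mice 1, 3 and 5. The S100a1 call was also lost without the arrays with pancreas RNA (-0.24, adjusted p = 0.376).

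The other 4 genes did not pass at day 53: S100a6 had 1.09 (95% interval 0.12 to 2.06, adjusted p = 0.0849), S100a8 2.92 (95% interval 0.14 to 5.70, adjusted p = 0.109), S100a9 2.96 (95% interval 0.12 to 5.79, adjusted p = 0.112) and S100a13 0.34 (95% interval -0.01 to 0.68, adjusted p = 0.143). Without FVB Nx mouse 10, S100a8 and S100a9 passed, with 4.13 (adjusted p = 0.0113) and 4.11 (adjusted p = 0.0154). Without FVB Nx mouse 4 they were 1.72 (adjusted p = 0.355) and 1.80 (adjusted p = 0.349). S100a6 passed without B6 Nx mouse 4 (1.34, adjusted p = 0.0345), B6 sham mouse 3 (1.31, adjusted p = 0.042) or FVB sham mouse 6 (1.31, adjusted p = 0.0427). Thus these 4 effects are not shown to differ between the strains over all mice, although S100a8, S100a9 and S100a13 passed in FVB and not in B6 mice.

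**Figure D3:**
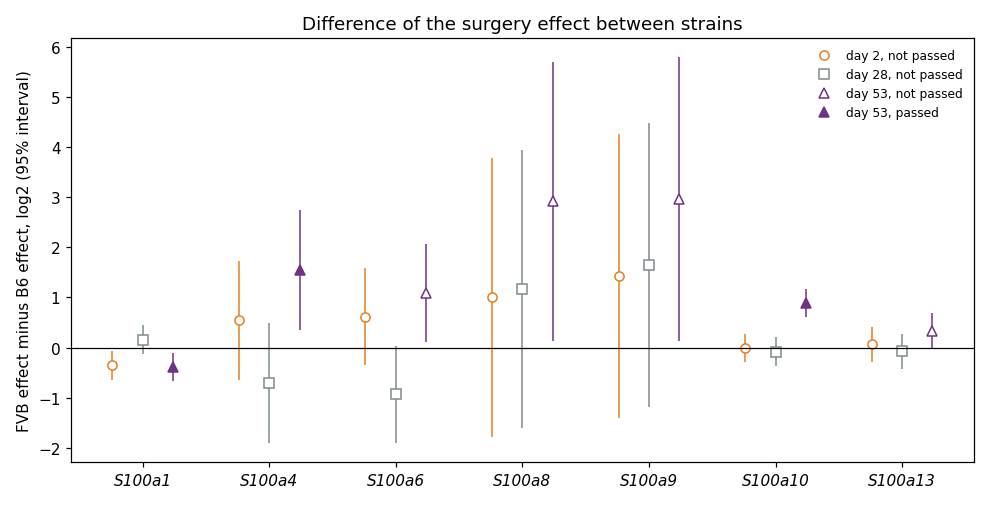
Nx effect in FVB minus Nx effect in B6 (y axis, log2) with its 95% interval for each S100 gene (x axis), from 4 mice in each of 4 groups; circles are day 2, squares day 28, triangles day 53, and filled triangles passed the threshold. S100a1, S100a4 and S100a10 at day 53 are the filled symbols, S100a1 below 0.

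The strains were also compared without Nx. Over the sham mice of the 3 days, FVB minus B6 passed for S100a10 alone among the 7 genes, -0.31 (95% interval -0.42 to -0.19, adjusted p = 3.59e-05). Of all genes, 15.6% were lower and 16.9% higher in FVB sham kidneys. S100a13 had -0.16 (95% interval -0.30 to -0.02, adjusted p = 0.0832). It passed without B6 sham mouse 3 of day 28, FVB sham mouse 5 of day 2 or FVB sham mouse 6 of day 53 (adjusted p = 0.018, 0.0472 and 0.0413). The sham level of S100a10 lay between 11.78 and 12.01 in FVB mice, against 11.98 to 12.42 in B6 mice, and these ranges meet only at their ends.

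Within groups, the arrays were compared after each group's mean was taken off, over 48 arrays and 49 relations, with p-values from 100000 permutations within groups, two-sided and adjusted by Benjamini-Hochberg. S100a8 and S100a9 rose and fell together from mouse to mouse, with Pearson's r = 0.976 and Spearman's rho = 0.950 (adjusted p = 0.000163 each, which rests on the smallest p that these permutations can give, 1e-05). Pearson's r was 0.962 without the 2 arrays farthest from the median, 0.986 over the 24 Nx arrays and 0.948 over the 24 sham arrays. S100a4 and S100a6 had r = 0.527 and rho = 0.584 (adjusted p = 0.00287 and 0.00106), and r = 0.416 without the 2 farthest arrays. S100a4 and S100a13 had r = 0.474 and rho = 0.426 (adjusted p = 0.0189 and 0.0363), and r = 0.358 without the 2 farthest arrays. S100a1 and S100a13 had r = 0.427 and rho = 0.374 (adjusted p = 0.0489 and 0.0763), with r = 0.788 over sham arrays and -0.07 over Nx arrays. Whether this relation differs between sham and Nx kidneys was not tested. Batches could not be compared, since none is given for these arrays.

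**Figure D4:**
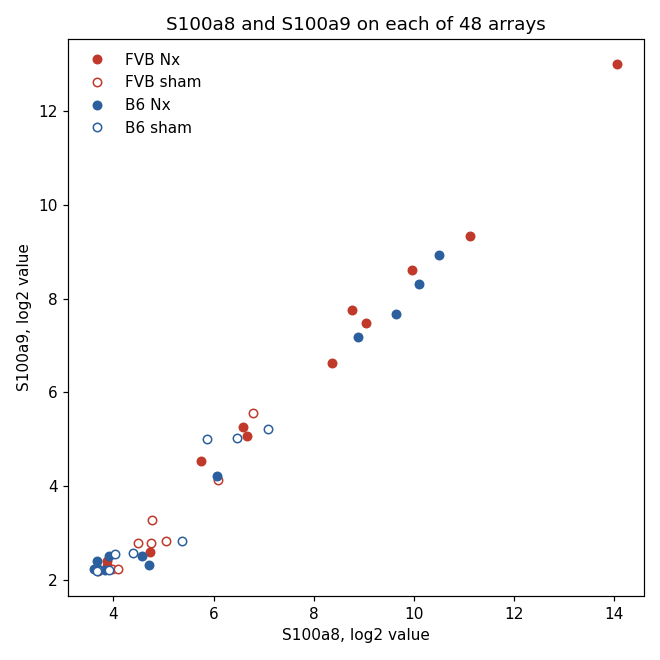
S100a9 (y axis) against S100a8 (x axis), log2 values, 1 point for each of the 48 arrays; filled points are Nx, open points sham, red FVB and blue B6. The points follow 1 line, with FVB Nx mouse 2 of day 2 at the top (14.06 and 13.01), and S100a9 levels off at 2.20.

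Cell type markers followed the same genes within groups. S100a4 went with the mean of 11 macrophage markers (r = 0.870, rho = 0.836, adjusted p = 0.000163 each, r = 0.796 without the 2 farthest arrays) and with 10 fibroblast markers (r = 0.791, rho = 0.766, adjusted p = 0.000163 each, r = 0.669 without them). S100a6 went with fibroblast markers (r = 0.681, rho = 0.653, adjusted p = 0.000196 and 0.000367, then r = 0.621) and with 8 injured tubule markers, such as Havcr1 and Lcn2 (r = 0.619, rho = 0.607, adjusted p = 0.000196 and 0.000588, then r = 0.598). S100a9 went with the 4 neutrophil markers (r = 0.632, rho = 0.520, adjusted p = 0.00563 and 0.00672), at r = 0.430 without the 2 farthest arrays, 0.728 over Nx arrays and 0.261 over sham arrays. S100a8 had r = 0.611 and rho = 0.448 with them (adjusted p = 0.012 and 0.0232), at r = 0.400 without the 2 farthest arrays and 0.106 over sham arrays. The neutrophil mean lay between 2.88 and 3.08 on sham arrays, against 2.93 to 6.98 on Nx arrays. The sham values of r thus rest on markers that hardly varied and cannot show a weaker relation. S100a10 had r = 0.433 and rho = 0.413 with macrophage markers (adjusted p = 0.0468 and 0.0412, then r = 0.466), and r = 0.414 and rho = 0.437 with injured tubule markers (adjusted p = 0.0282 and 0.0412, then r = 0.515). Macrophage markers also went with S100a6 (r = 0.480, rho = 0.466, adjusted p = 0.0133 and 0.0171) and S100a13 (r = 0.493, rho = 0.431, adjusted p = 0.00287 and 0.0202). Over Nx and over sham arrays, r with macrophage markers was 0.520 and 0.039 for S100a10 and 0.696 and 0.236 for S100a6. It was 0.641 and 0.320 for S100a13 and 0.869 and 0.877 for S100a4. Whether these relations differ between Nx and sham kidneys was not tested. Injured tubule markers went with S100a4 too (r = 0.371, rho = 0.451, adjusted p = 0.0221 and 0.0144). Neutrophil markers passed with S100a4 on r (0.439, adjusted p = 0.0266) and not on rho (0.208, adjusted p = 0.357). S100a4 and S100a6 thus went with more than 1 list. Of the 49 relations, 21 passed on Pearson's r.

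These marker lists themselves moved with Nx. The injured tubule mean lay between 7.69 and 10.82 in Nx groups, against 6.53 to 7.38 in sham groups. The fibroblast mean lay between 10.86 and 13.18 in Nx groups, against 8.38 to 10.53 in sham groups, and the macrophage mean between 7.28 and 10.68, against 5.48 to 6.98. Fibroblast markers were higher for 10, 9 and 10 of 10 genes in FVB mice and 9 of 10 on each day in B6 mice at days 2, 28 and 53. All-gene shares called higher were 24.8%, 7.35% and 25.9% in FVB mice and 20.2%, 9.85% and 8.03% in B6 mice. The share of these cells in the S100 values was not tested.

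**Figure D5:**
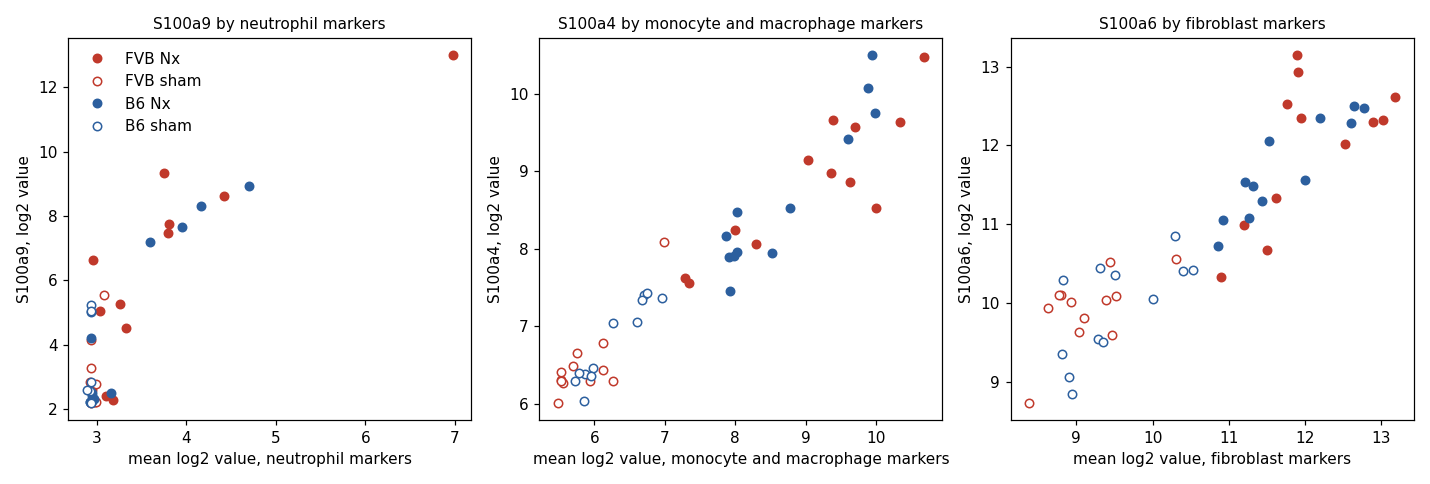
S100a9 against the mean of 4 neutrophil markers, S100a4 against 11 monocyte and macrophage markers, and S100a6 against 10 fibroblast markers (x axes, mean log2; y axes, log2), 1 point per array; filled points are Nx, open points sham, red FVB and blue B6. S100a9 spreads widely where the neutrophil mean lies near 2.93, while S100a4 climbs with its markers over the whole range.

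The binding partners of the family moved with it in part. Annexins, which S100a10 and S100a11 proteins hold, were higher for 4, 3 and 3 of 4 tested genes in FVB mice and 4, 4 and 3 in B6 mice at days 2, 28 and 53. The all-gene shares called higher were 24.8%, 7.35% and 25.9% in FVB mice and 20.2%, 9.85% and 8.03% in B6 mice. Anxa2, the partner of S100a10, differed by 1.62 (adjusted p = 1.65e-10), 0.70 (adjusted p = 0.00255) and 2.03 (adjusted p = 6.51e-13) in FVB mice. In B6 mice it differed by 1.18 (adjusted p = 3.38e-07), 0.85 (adjusted p = 0.000284) and 0.59 (adjusted p = 0.0122). Anxa1 differed by 2.68, 1.50 and 2.45 in FVB mice and by 2.50, 2.12 and 1.64 in B6 mice, all called. Anxa6 did not pass at days 28 and 53 in FVB (0.25, adjusted p = 0.158, and 0.08, adjusted p = 0.629) and at day 53 in B6 mice (0.26, adjusted p = 0.146).

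Other binding partners moved in both directions. Of 8 tested, 3, 1 and 2 were higher and 3, 4 and 2 lower in FVB mice at days 2, 28 and 53, and 3, 2 and 2 were higher and 3, 4 and 4 lower in B6 mice. At day 2 the all-gene shares were 24.8% higher and 30% lower in FVB mice and 20.2% and 24.4% in B6 mice. They were 7.35% and 8.81% in FVB and 9.85% and 9.14% in B6 mice at day 28. At day 53 they were 25.9% and 27.8% in FVB and 8.03% and 6.68% in B6 mice, so the FVB counts of day 53 lie near these shares. Myh9, the non-muscle myosin that S100a4 protein binds, was higher in all 6 comparisons, by 0.87, 0.40 and 1.28 in FVB and by 0.67, 0.43 and 0.34 in B6 mice. Fgf1, the growth factor released with S100a13, was lower in all 6, with differences of -1.03, -0.92 and -1.87 in FVB and of -1.56, -1.09 and -0.93 in B6 mice. Atp2a2, the calcium pump that S100a1 protein regulates in muscle, was also lower in all 6, with differences between -0.48 and -0.24. Cacybp, the calcyclin binding protein named for S100a6, passed in none (-0.21 to 0.03).

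Receptors of released S100 proteins were followed as well. Of 7 receptors and adaptors, 5, 3 and 4 were higher and 2, 0 and 1 lower in FVB mice at days 2, 28 and 53, and 3, 2 and 1 higher and 1, 0 and 0 lower in B6 mice. The share of all genes called higher was 24.8%, 7.35% and 25.9% in FVB mice and 20.2%, 9.85% and 8.03% in B6 mice. The TLR4 co-receptor Cd14 differed by 3.39, 1.88 and 4.86 in FVB mice and by 2.72, 1.49 and 1.11 in B6 mice, all called. Tlr4 itself differed by 1.96, 0.78 and 1.67 in FVB mice, all called, and by 0.73 (called), 0.96 (called) and 0.60 (adjusted p = 0.0784) in B6 mice. Ager, which encodes RAGE, was called lower at day 2 in FVB mice (-0.12, adjusted p = 0.0306) and passed in no other comparison. Its group means all lay between 2.58 and 2.69. Every array of FVB Nx day 53 and of B6 Nx days 28 and 53 read 2.62. At so low and flat a level the Ager call cannot be read as a fall of RAGE. Bsg, a receptor for S100a9 protein, was lower at day 2 in FVB (-0.82) and B6 mice (-0.44) and at day 53 in FVB mice (-0.53).

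Transcription factors known for myeloid calprotectin genes moved too. Of 5 tested, 4, 2 and 4 were higher in FVB mice at days 2, 28 and 53, with Cebpa lower at day 53 (-0.81, adjusted p = 0.0116). In B6 mice 2, 2 and 1 were higher, with Cebpd lower at day 53 (-1.37, adjusted p = 0.00456). Of all genes, 24.8%, 7.35% and 25.9% were called higher in FVB mice and 20.2%, 9.85% and 8.03% in B6 mice. Cebpb, a factor of the C/EBP class, differed by 1.67, 0.93 and 2.10 in FVB mice, all called, and by 1.44 (called), 0.77 (called) and 0.37 (adjusted p = 0.43) in B6 mice. Stat3 was higher in all 6 comparisons, by 0.46 to 1.43. Of the other S100 genes 4 of 8 were tested, and S100g, the calbindin of calcium transport in the kidney, was lower at day 2 in FVB (-1.05, adjusted p = 4.38e-09), at day 53 in FVB (-1.29, adjusted p = 3.28e-11) and at day 2 in B6 mice (-0.49, adjusted p = 0.00167). S100a16 was higher at day 53 in FVB (0.30, adjusted p = 0.000775) and at day 2 in B6 mice (0.20, adjusted p = 0.0309), and S100b passed in none. S100a14 was called higher at day 2 in B6 mice (0.37, adjusted p = 0.00253), with means of 2.57 in Nx and 2.20 in sham kidneys. It exceeded the filter value only on Nx arrays of day 2, most of them in the group called higher. The filter thus kept S100a14 through that group, and its call carries little weight.

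Ordered by mean level over the 12 groups, S100a8 and S100a9 had the same top 6: FVB Nx day 2 (10.45 and 9.21), B6 Nx day 2 (9.78 and 8.02), FVB Nx day 53 (7.50 and 5.86), B6 sham day 2 (5.73 and 3.91), FVB sham day 2 (5.40 and 3.68) and FVB Nx day 28 (5.23 and 3.67). S100a6 was highest in FVB Nx at day 53 (12.74 ± 0.36, SD, n = 4) and lowest in B6 sham at day 53 (9.50 ± 0.60). S100a10 was highest in B6 Nx at day 2 (13.36 ± 0.16) and lowest in FVB sham at day 53 (11.80 ± 0.04). Neighbours in these orders seldom differed beyond their spread: all 11 neighbouring groups overlapped for S100a6, S100a8, S100a9 and S100a13, and 10 of 11 for S100a1, S100a4 and S100a10. For S100a4 and S100a10 the single break lay between adjacent groups in the middle of the order, FVB Nx day 28 over B6 sham day 2 for S100a4 and B6 sham day 2 over B6 sham day 53 for S100a10. For S100a1 it lay between B6 Nx day 2 and B6 sham day 53.

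The genes whose 12 group means were most like each member were found by Pearson's r over those means, as a description, with groups sharing arrays of 1 series. For S100a8 they were Ska1 (r = 0.981), Zgrf1 (0.971) and Dscc1 (0.970), and for S100a9 Ska1 (0.980), Rad54l (0.973) and Cenpu (0.971). S100a4 was most like Crlf2 (0.990), Lox (0.990) and Rcn1 (0.989), and S100a6 most like Slc25a24 (0.987), Tuba1a (0.986) and Timp1 (0.984). S100a10 had Tagln2 (0.987), Lhfp (0.984) and Clu (0.981), the last being an injured tubule marker. S100a13 had Vwa5a (0.943), Elf3 (0.940) and Nup210 (0.940), and S100a1 had Tm7sf2 (0.898), Nme2 (0.888) and Atp6v0e (0.879).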

How the data were processed

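Whole-kidney RNA of 48 mice was measured, 1 Affymetrix array per mouse and 4 per group. The log2 values used are those of the deposited series matrix (45101 probe sets), and the submitters' processing notes name MAS5, with version, background step and scaling not given in the sources used here. Arrays carry no read depth, so their number limits the precision. The 8 members and all gene lists were chosen with earlier results of these data known. Of the probe sets, 34945 carry 1 gene symbol, 932 several and 9211 are not in the platform table, and only single-symbol sets name a gene. A gene was read from its set with the highest mean, and kept if over 2.28 (the 40th percentile of all values) on at least 4 arrays, which left 13174 genes. Differences were fitted with limma 3.58.1 (R 4.3.3) as a model of 12 group means with an intensity trend, two-sided, with Benjamini-Hochberg adjustment over all genes for each of 14 contrasts and a threshold of 0.05. The 4 mice of a group are separate animals. Sex, batch and scan date were not used here, so batch effects could not be examined. The named genes are all members, the genes of the lists that a result turns on, and the 3 genes most like each member over the 12 group means. Motifs, correlations and figures used Python 3.11.15 with numpy 2.4.6, pandas 2.3.3, scipy 1.17.1 and matplotlib 3.10.9. The limma fit was tested on simulated data. Alternatives covered scaling, filter, probe set, variance model, array weights, the arrays fitted, a replicate block, single arrays left out and arrays with pancreas RNA left out. Deviations of mice with the same number correlated at -0.25 to 0.38 over 10 pairs, 5 of them over 0.1, beside 16 of 86 pairs of other numbers over 0.1. Since not every pair was over 0.1 and no label ties the numbers, mice were not treated as pairs.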

Additional observations from a re-analysis of the deposited data

Results flagged for a closer look

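Of 84 sets of 4 mice (7 genes in 12 groups), 11 held a mouse far from the other 3 by Dixon's 95% value. That value gives about 1 in 20 only for independent sets of normal values, so the rate cannot be applied here. S100a8 and S100a9 went together within groups (r = 0.976). In the flagged S100a9 sets of sham mice, the other 3 mice lay at 2.20 to 2.23, next to the lowest value of the table. Several of these mice stood apart for both calprotectin genes. B6 Nx mouse 7 of day 53 had 6.06 for S100a8 and 4.21 for S100a9, above 3.62 to 3.92 and 2.23 to 2.50 in its group. B6 sham mouse 1 of day 28 had 5.86 for S100a8 and 5.02 for S100a9, and the other sham mice lay at 3.69 to 3.91 and 2.21 to 2.23. B6 sham mouse 1 of day 53 had 4.39 for S100a8, 2.58 for S100a9 and 7.05 for S100a4. FVB sham mouse 3 of day 53 had 2.83 for S100a9, FVB sham mouse 5 of day 2 had 8.08 for S100a4, FVB sham mouse 5 of day 53 had 11.86 for S100a10, and B6 Nx mouse 9 of day 2 had 10.94 for S100a1.

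The Nx effect differed between strains or days for 13 results, each by the test of the difference itself in limma. Between strains at day 53 these were S100a10 (0.89, adjusted p = 6.54e-06), S100a4 (1.55, adjusted p = 0.043) and S100a1 (-0.38, adjusted p = 0.0365). Between days 2 and 28 in FVB mice they were S100a1 (0.65, adjusted p = 0.000643), S100a10 (-0.50, adjusted p = 0.00715), S100a9 (-4.49, adjusted p = 0.0155), S100a6 (-1.49, adjusted p = 0.0195) and S100a8 (-3.98, adjusted p = 0.0291). Between days 28 and 53 in FVB mice they were S100a10 (0.97, adjusted p = 2.04e-06), S100a6 (2.01, adjusted p = 0.00162) and S100a4 (1.59, adjusted p = 0.0407). Between days 2 and 28 in B6 mice they were S100a9 (-4.72, adjusted p = 0.0264) and S100a10 (-0.43, adjusted p = 0.0428).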

How the results depend on the processing

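The counts of S100 genes that passed stayed within 1.5 times in 126 recomputations other than single arrays left out and moved further in 14, and no direction of a called difference was reversed. For the B6 effect at day 28 minus day 2 (2 genes), the count was 1 with the median shift, 1 without the filter, 1 with the mean of probe sets and 0 without the arrays with pancreas RNA. The strain difference at day 53 (3 genes) fell to 1 without the filter. FVB Nx at day 28 (2 genes) gave 1 with the mean of probe sets, 4 with array weights and 0 without the pancreas arrays. Fitting only the arrays compared gave 3 for FVB Nx at day 53 (6 genes) and 3 for the FVB effect at day 28 minus day 2 (5 genes), and that last count was 1 without the pancreas arrays. Without those arrays 1 gene passed for the strain difference at day 28 and 1 for the B6 effect at day 53 minus day 28 (0 each otherwise), both S100a4 (-3.05, adjusted p = 0.00795, and -2.70, adjusted p = 0.00676), with 1 B6 Nx array left at day 28, assumed to vary like the other groups. The sham comparison (1 gene) gave 2 with array weights. S100a1 passed as lower in FVB Nx kidneys at day 53 with the median shift (-0.28, adjusted p = 0.018) and with the mean of probe sets (-0.28, adjusted p = 0.0105). With the median shift the calls of S100a4 for the strain difference at day 53 (adjusted p = 0.0519) and of S100a10 for the B6 effect at day 28 minus day 2 (adjusted p = 0.0661) were lost. The cause of these changes was not tested.

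With single arrays left out, the counts ranged from 6 to 6 for FVB Nx at day 2, 1 to 3 at day 28 and 6 to 6 at day 53, and from 5 to 5, 3 to 3 and 3 to 3 for B6 Nx. They ranged from 3 to 6 and 2 to 5 for the FVB changes over days, 0 to 3 and 0 to 0 for the B6 changes, 0 to 1, 0 to 0 and 1 to 5 for the strain differences at days 2, 28 and 53, and 1 to 2 for sham mice.

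Mouse number as a replicate block (estimated correlation 0.126) moved no count of S100 genes by over 1.5 times, and S100a8 then passed for the B6 effect at day 28 minus day 2 (-4.11, adjusted p = 0.0454), as it did with quantile normalisation (adjusted p = 0.0439), the stricter filter (0.042), array weights (0.00395) and only the arrays compared (0.016). Low signal limits S100a9 most, with 16 arrays within 0.1 of the table's lowest value.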

Other observations

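Among sham mice, S100a8 and S100a9 were highest at day 2 in both strains. In FVB sham kidneys of days 2, 28 and 53 the S100a8 mean was 5.40 ± 1.28, 4.15 ± 0.56 and 4.13 ± 0.65 (SD, n = 4 each). In B6 sham kidneys it averaged 5.73 ± 1.34, 4.29 ± 1.05 and 3.86 ± 0.35 on these days. The ranges of day 2 and day 28 overlapped in both strains, and the differences between sham days were not tested.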
